A study of Mus musculus with 42 samples.

Results

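The messenger RNAs (mRNAs) of the cytosolic ribosomal proteins were followed in 4 nuclei of the mouse hypothalamus, in fed and in fasted animals. The genes were chosen by symbol alone: protein-coding genes named Rpl or Rps followed by a digit, with Rplp0, Rplp1, Rplp2 and Rpsa, and without the Rps6k kinases and the pseudogenes. The rule gave 85 of the 37907 genes in the table. By name, 51 belong to the large ribosomal subunit and 33 to the small one, and the remaining gene, Rps19bp1, encodes a protein that binds Rps19 and is no subunit. Of the 85 genes, 84 had at least 1 RPKM (reads per kilobase of exon, scaled to the mapped reads of the library) in at least 4 libraries and were tested. The one left out by this filter was Rpl3l.

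The arcuate nucleus (ARC), ventromedial (VMH), dorsomedial (DMH) and paraventricular nucleus (PVN) were cut by laser capture from brain sections of male C57/BL6 mice, adult and wild type, and their RNA was sequenced. The mice of the fed groups had free access to food, and those of the fasted groups had been without food for 24 hours. The 42 libraries comprised 5 of the fed and 5 of the fasted ARC, 6 of each state for the VMH, 5 fed and 4 fasted for the DMH, and 6 fed and 5 fasted for the PVN. According to the study's methods the nuclei were taken from serial sections of the same brains and outlying libraries were dropped before deposit. Because the labels do not say which libraries share a mouse, all were treated as independent, and p-values measure the spread between these libraries. Each library came from a captured region that holds neurons, glia and vessels, amplified from nanogram amounts of total RNA.

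Each ribosome holds a single copy of nearly every ribosomal protein, built with the ribosomal RNAs into a small subunit, which reads the mRNA, and a large subunit, which forms the peptide bond. Their mRNAs are among the most abundant in most cells, and most begin with a run of pyrimidines, the terminal oligopyrimidine (TOP) motif, through which mTOR, the nutrient-sensing kinase, sets how strongly they are translated. The control acts largely on translation, which levels of mRNA do not show, and Rps6 is the subunit protein whose phosphorylation is widely used to mark active neurons in the hypothalamus.

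The bases at the start of transcription are shown for some of the genes that the results below turn on: several of those with the smallest p-values between nuclei, the acidic stalk protein Rplp2, and genes named for a pattern of their own. Each window holds the 15 bases before the annotated start and the 15 bases from it, written 5′ to 3′ on the gene's own strand, and the capitals mark the longest run of at least 5 pyrimidines that opens with C.
Rps6: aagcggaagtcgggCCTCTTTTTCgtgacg
Rps9: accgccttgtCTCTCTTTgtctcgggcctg
Rpl13a: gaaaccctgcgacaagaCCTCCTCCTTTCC
Rpl4: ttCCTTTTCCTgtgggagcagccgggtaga
Rplp2: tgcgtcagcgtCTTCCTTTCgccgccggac
Rpl15: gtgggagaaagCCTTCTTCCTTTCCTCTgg
Rpl10a: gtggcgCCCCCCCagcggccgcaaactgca
Rps15a: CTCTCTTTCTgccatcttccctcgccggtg
Rpl10: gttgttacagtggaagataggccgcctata
Rpl36al: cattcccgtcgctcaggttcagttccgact
Rpsa: gtgggttatttaaggacgtcatttccggcc
The sequences are RefSeq's for the build GRCm38.p6. The windows were Rps6 at chr4:86857353-86857382 on the minus strand, Rps9 at chr7:3704026-3704055 on the plus strand, Rpl13a at chr7:45128731-45128760 on the minus strand, Rpl4 at chr9:64173372-64173401 on the plus strand, Rplp2 at chr7:141447636-141447665 on the plus strand and Rpl15 at chr14:18270972-18271001 on the minus strand. The others were Rpl10a at chr17:28328456-28328485 on the plus strand (the first of 2 annotated starts), Rps15a at chr7:118116133-118116162 on the minus strand, Rpl10 at chrX:74270801-74270830 on the plus strand, Rpl36al at chr12:69184053-69184082 on the minus strand and Rpsa at chr9:120127751-120127780 on the plus strand. Of the windows shown, those of Rpl10, Rpl36al and Rpsa held no such run, whereas the other 8 did. The second start of Rpl10a held none. Some genes with small p-values between nuclei are not shown. Of these, Rps4x, Rpl23, Rpl5 and Rpl9 held no such run, and Rpl14, Rps23, Rps27 and Rps27rt held a run.

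Promoter entries were found for 65 of the 85 genes, with 77 starts between them. A C followed by at least 4 pyrimidines lay exactly at the annotated start in 14 of these 77 starts (18.2%), against 2.51% of all 32851 starts in the table, and began within 10 bases of it in 42 (54.5%), against 30.7%. The letters CCGGAA, read on both strands in the 250 bases before each start, were present at 27 starts (35.1%), against 12.03% of all starts. GGGCGG was present at 38 (49.4%), against 32.7%. TATAAA was present at 4 (5.19%), against 12.4%. AAGATGG was present at 5 (6.49%), against 4.49%. These are matches of letters and do not show that a factor binds.

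The number of reads counted in genes, inferred from the spacing of low values and the annotated exon lengths, was 4.57 M on average, from 1.33 to 13.2 M. It is called depth here and is not the number of reads sequenced, which the study's methods give as a higher mean over a larger set of captured nuclei. Of 11 marker genes of the nuclei, among them Pomc and Agrp for the ARC, Nr5a1 and Fezf1 for the VMH, and Oxt and Sim1 for the PVN, 11 had their highest fed mean in their own nucleus. Agrp, the orexigenic neuropeptide of the ARC, rose on fasting in that nucleus by 1.61 ± 0.33 (log2 difference ± standard error, adjusted p = 0.0613). The lowest values recurring within libraries split the 42 libraries into 3 batches of 10 to 16, each holding ARC, VMH and PVN libraries of both states. The deposited log2 values had the same mean in every batch for each gene, so differences between batches had been removed before deposit. The smallest batch does not hold the groups in the same proportions as the others and has no fasted DMH library. Making the batch means equal can therefore have shifted group values.

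Most ribosomal protein mRNAs were abundant. Of the 85 genes, 81 had a mean of at least 10 RPKM over the 42 libraries, and the median gene stood at 67.1 RPKM. The highest were Rpl4, whose protein lines the exit tunnel of the large subunit, at 418 RPKM, Rpl32 at 398 RPKM, Rps27 at 388 RPKM, Rps15 at 320.1 RPKM and Rpl41, the smallest ribosomal protein, at 242 RPKM. At the other end were paralogs known from other tissues. The muscle paralog Rpl3l averaged 0.760 RPKM and lay above the value that stands for no reads in 9 of 42 libraries, and the testis paralogs Rpl10l (1.09 RPKM) and Rpl39l (1.52 RPKM) did so in 1 and 6 libraries. Rpl7l1 averaged 6.39 RPKM and Rps19, the first gene linked to Diamond-Blackfan anaemia, 13.2 RPKM. RPKM divides by the annotated exon length, which for Rps19 is 4685 bases, so the order of genes by level depends on the annotation, while a difference of 1 gene between groups does not.

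Ribosomal protein genes have many processed pseudogenes. For 41 of the 85 genes, more than 50% of the 50-base stretches of their transcripts recurred in transcripts of other annotated genes, so their values depend on where the aligner placed such reads. Rps27 is an extreme case at 98.6%. The sources used here do not state that strand was used in counting, so genes on the opposite strand could add to a value as well.

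The level of the ribosomal protein mRNAs as a whole differed between the nuclei and hardly between fed and fasted mice. It was taken as the mean of log2(RPKM + 1) over the 80 subunit genes with a mean of at least 10 RPKM. In the fed ARC the 5 libraries stood at 6.53, 6.66, 6.57, 6.53 and 6.40, in the fed PVN the 6 libraries at 6.28 to 6.55 (median 6.42), in the fed DMH the 5 at 6.31, 6.25, 6.08, 6.04 and 6.06, and in the fed VMH the 6 at 5.78 to 6.11 (median 5.88). Every fed ARC library thus lay above every fed VMH library, while ARC overlapped PVN, PVN overlapped DMH at 1 library, and DMH overlapped VMH. The means were 6.54 ± 0.0953 (SD, n = 5) in the ARC, 6.41 ± 0.0915 (n = 6) in the PVN, 6.15 ± 0.123 (n = 5) in the DMH and 5.90 ± 0.126 (n = 6) in the VMH.

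On this scale the fed ARC exceeded the fed VMH by 0.64, a ratio of 1.56 between their typical levels. The steps between neighbours were smaller: 0.13 (1.09-fold) from ARC to PVN, 0.26 (1.20-fold) from PVN to DMH and 0.25 (1.19-fold) from DMH to VMH. In the fasted libraries the order was the same, with means of 6.57 ± 0.0902 (n = 5) in the ARC, 6.33 ± 0.153 (n = 5) in the PVN, 6.18 ± 0.0632 (n = 4) in the DMH and 5.91 ± 0.102 (n = 6) in the VMH, and ARC exceeded VMH by 0.66. Within each of the 3 batches the fed ARC lay above the fed VMH, by 0.52, 0.74 and 0.65, and the fasted ARC above the fasted VMH, by 0.53, 0.68 and 0.70. These differences rest on few libraries. In each state the first batch held 1 ARC and 2 VMH libraries, and the others held 2 of each. In bulk tissue, fewer cells with a given level and less RNA per cell cannot be told apart, and RPKM are shares of a library, so these are differences in the share of mRNA.

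**Figure D1:**
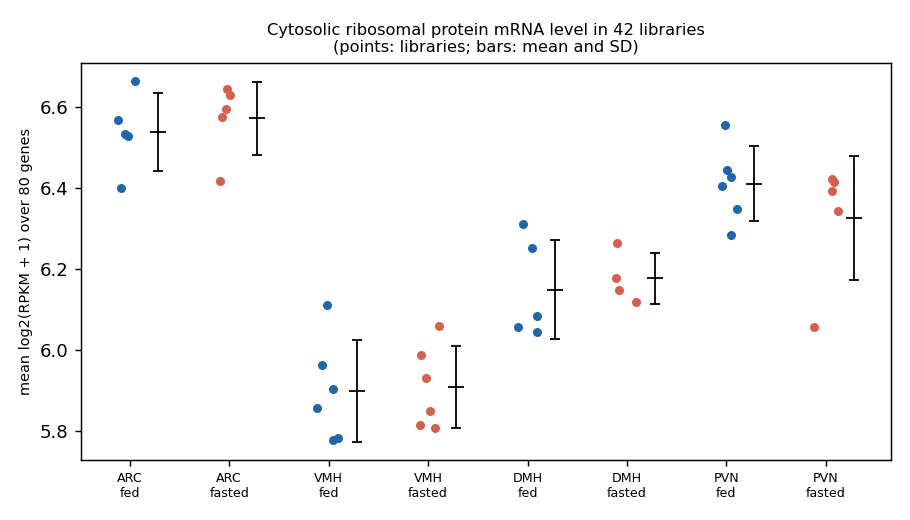
Each point is 1 of 42 libraries, placed by nucleus and state on the x axis, with the mean log2(RPKM + 1) of 80 ribosomal protein genes on the y axis; bars give the mean and SD of each group. All ARC libraries (6.40 to 6.66) lie above all VMH libraries (5.78 to 6.11), and fed and fasted groups of a nucleus overlap, with 1 fasted PVN library low at 6.06.

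Tested gene by gene, the difference was carried by most of the ribosomal protein genes. A limma F-test over the 4 fed nuclei, adjusted over all 33579 genes tested, called 70 of the 84 genes at an adjusted p under 0.1, where 12.4% of all genes tested were called, and 35.4% of the 5842 well-detected genes, those with a mean of at least 10 RPKM and reads in at least 21 libraries. The genes tested include 4756 that stood at the value of no reads in all 42 libraries and can hardly be called, so the well-detected genes are the closer comparison; 81 of the ribosomal protein genes are among them. In the fasted libraries, which are other libraries, 67 of the 84 were called, against 11.9% of all genes tested and 33.2% of the well-detected genes. Of these, 64 were called in both states, 91.4% of the fed and 95.5% of the fasted calls. By subunit, the fed calls were 41 of 50 large and 29 of 33 small subunit genes.

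Against the mean of the other 3 fed nuclei, 53 genes were higher in the ARC and 0 lower, where 2.38% of all genes tested and 6.66% of the well-detected genes were called higher, and the median difference over the 84 genes was 0.38, from -0.12 to 0.72. In the VMH 64 were lower and 0 higher, where 4.57% and 13.7% were called lower, with a median of -0.46, from -0.90 to 0.15. In the PVN 24 were higher and 0 lower (3.18% and 9.19% were higher), with a median of 0.22, and in the DMH 5 were lower and 0 higher (1.01% and 3.82% were lower), with a median of -0.14. After quantile normalization the DMH had 1 call and a median of -0.0498. The count in the DMH was 1 without fed DMH library 3 and 3 without fed DMH library 4, and Rpl15 was called in both cases. The 4 comparisons share libraries, so a nucleus that is low makes the others look high. The median over the well-detected genes was 0.02, -0.01, -0.04 and 0.02 for ARC, VMH, DMH and PVN.

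The ordering held for most single genes. Fed ARC had the highest mean of the 4 nuclei for 64 of the 84 genes (28.1% of the well-detected genes), fed VMH had the lowest for 73 (33.8%), and the full order ARC, PVN, DMH, VMH was seen for 55 (9.06%). For 51 genes every fed ARC library lay above every fed VMH library (6.95%), and for 0 genes was the reverse true. Between neighbours, ARC and PVN differed for 4 genes at an adjusted p under 0.1 (4.13% of all genes tested), PVN exceeded DMH for 21 (1.73% of all genes tested were higher) and DMH exceeded VMH for 22 (2.39%) and was below it for 1, Rpl15 (2.86% were lower). Of the 5842 well-detected genes, 11.2% differed between ARC and PVN, more than the 4.76% of the 84. PVN exceeded DMH for 347 of the 5842, and DMH exceeded VMH for 326 and was below it for 584. Between the ends of the order, 69 genes were higher in the fed ARC than in the fed VMH and 0 lower, where 3.83% of all genes tested and 11.5% of the well-detected genes were higher, with a median difference of 0.63, or 1.55-fold.

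The fasted libraries gave the same comparisons a second set of samples. Against the mean of the other 3 fasted nuclei, 64 genes were higher in the ARC (2.9% of all genes tested were higher) and 61 lower in the VMH (4.64% were lower), with medians of 0.44 and -0.44. Of the genes higher in the ARC, 50 were called in both states, 94.3% of the fed and 78.1% of the fasted calls. Of those lower in the VMH 55 were called in both, 85.9% and 90.2%. The PVN had 9 genes higher in the fasted state (2.9% of all genes tested), of which 8 were among its 24 fed calls, and the DMH had 1 lower (0.485%), which was not among its 5 fed calls. Of the 5842 well-detected genes, 471 were higher in the fasted ARC and 871 lower in the fasted VMH. Among the same genes 440 were higher in the fasted PVN and 105 lower in the fasted DMH. For 57 genes every fasted ARC library lay above every fasted VMH library (8.22% of the well-detected genes), and the fasted ARC had the highest mean for 77 genes (28.7%), the fasted VMH the lowest for 78 (35.8%), and the full order was seen for 61 (9.57%).

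**Figure D2:**
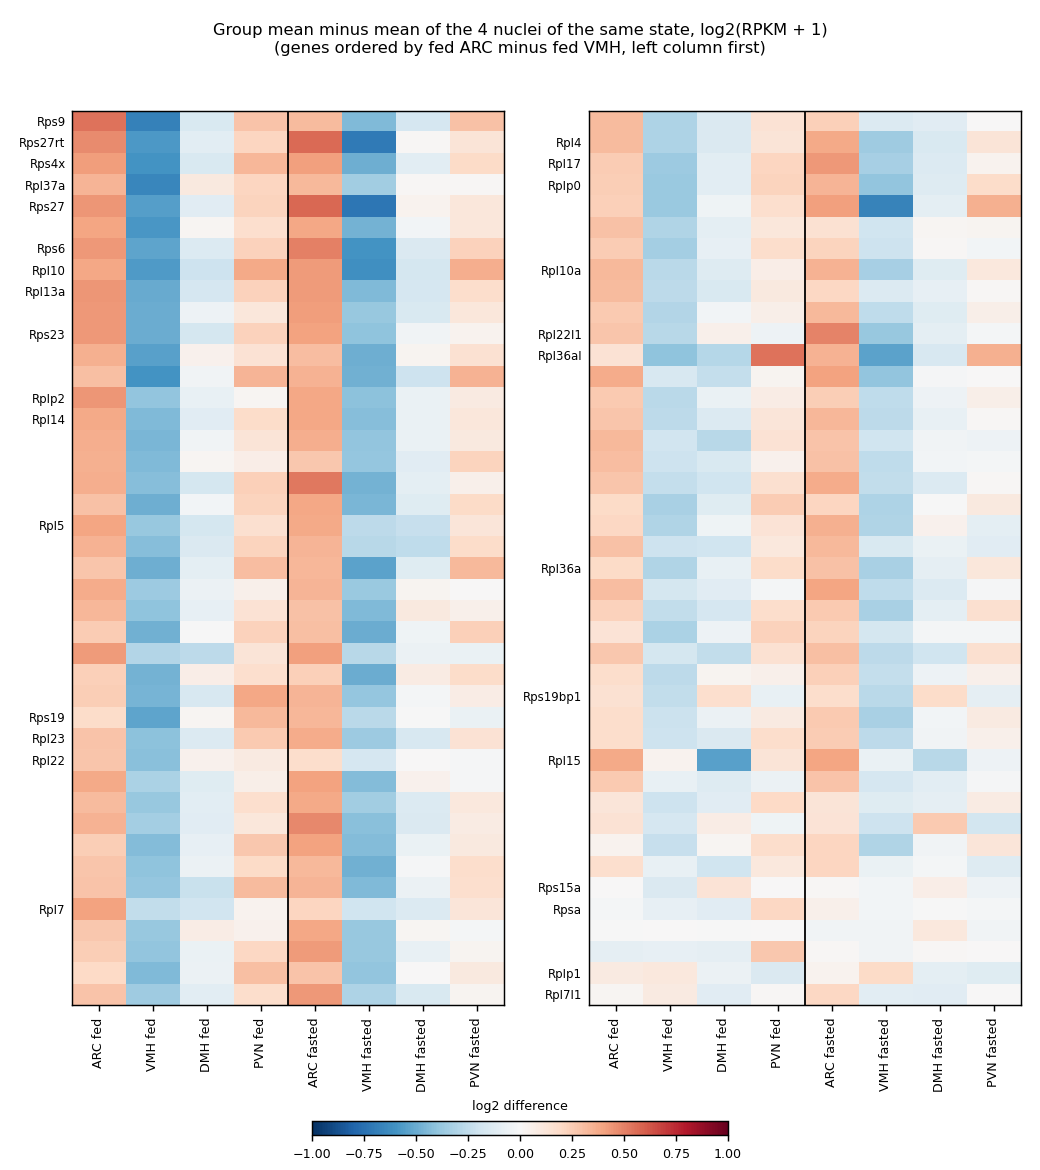
Rows are the 84 tested genes, ordered by the difference between fed ARC and fed VMH from the top of the left panel to the bottom of the right one, and columns are the 8 groups; colour gives the group mean of log2(RPKM + 1) minus the mean of the 4 nuclei in the same state, and rows of genes described in the text are labelled. The ARC columns are red and the VMH columns blue for most rows in both states, with Rpl15 pale in the VMH and blue in the DMH, and Rplp1, Rpsa and Rps15a near white.

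Among small subunit genes, Rps6 and Rps9 showed the clearest separation. Rps6 (ENSMUSG00000028495, chr4:86854660-86857412, minus strand, GRCm38) encodes the target of the S6 kinases. It stood at 111, 109.6, 107, 99.2 and 85.99 RPKM in the 5 fed ARC libraries and at 45.6 to 63.9 (median 50.6) RPKM in the 6 fed VMH libraries. It stood at 75.6, 72.3, 66.96, 60.3 and 67.8 RPKM in the fed DMH and at 80.2 to 97.99 (median 88.6) RPKM in the fed PVN. The ARC and VMH ranges were apart, the DMH lay between them with 1 library inside the VMH range, and the PVN overlapped the ARC. The means were 103 ± 10.3 RPKM (SD, n = 5) in the fed ARC and 52.3 ± 6.47 RPKM (n = 6) in the fed VMH, a log2 difference of 0.96 ± 0.10 (SE, adjusted p = 9.74e-09). In the fasted libraries Rps6 stood at 105, 96.9, 89.7, 107 and 103 RPKM in the ARC and at 36.5 to 57.8 (median 46.3) RPKM in the VMH, again without overlap. Of its 50-base stretches 84.6% recur in other genes.

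Rps9 (ENSMUSG00000006333, chr7:3703993-3706897, plus strand) is one of the small subunit proteins that bind ribosomal RNA early in assembly, and 26.8% of its stretches recur in other genes. It stood at 119.8, 125, 109, 104 and 92.7 RPKM in the fed ARC and at 37.4 to 54.9 (median 48.1) RPKM in the fed VMH. It stood at 81.3, 66.7, 67.7, 63.2 and 59.2 RPKM in the fed DMH and at 80.95 to 106 (median 92.9) RPKM in the fed PVN. Each fed ARC value was more than any DMH or VMH value, and the DMH stood above the VMH in every library. The ARC exceeded the VMH by 1.22 ± 0.12 on the log2 scale (adjusted p = 8.06e-10), and the adjusted p over the 4 nuclei was 9.83e-10 in the fed and 5.29e-06 in the fasted libraries.

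Rps4x, the X-linked form of a small subunit protein, had group means of 188, 92.7, 125 and 176 RPKM in the fed ARC, VMH, DMH and PVN. Rps23, which lies at the decoding centre, had 225, 118, 147 and 196 RPKM in the same order. Both were highest in the ARC and lowest in the VMH, with adjusted p over the fed nuclei of 1.81e-07 and 2.68e-07.

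In the large subunit, Rpl13a, known also as a member of a complex that silences inflammatory mRNAs, stood at 99.1, 104, 89.4, 80.05 and 82.2 RPKM in the fed ARC and at 41.7 to 52.4 (median 45.7) RPKM in the fed VMH, without overlap. Its log2 difference was 0.95 ± 0.09 (adjusted p = 1.57e-09). Of its stretches 57.4% recur and 35.4% of its exon bases overlap another gene. Rpl4, the most abundant of all, stood at 476, 531, 562, 537 and 503 RPKM in the fed ARC and at 299 to 428 (median 323) RPKM in the fed VMH, again without overlap, a difference of 0.62 ± 0.09. Rpl14 had fed means of 241 RPKM in the ARC and 137 RPKM in the VMH, and Rpl23 of 157 and 96.5 RPKM. Rpl5, which carries the 5S ribosomal RNA and holds Mdm2 when assembly stalls, was the only 1 of the 84 genes called in the fasted DMH against the other fasted nuclei, at -0.31 ± 0.09. Of its stretches 93.8% recur and 26.7% of its exon bases overlap other genes.

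Rpl10, on the X chromosome, joins the large subunit late in its maturation and was high in the PVN as well as the ARC. It stood at 109.6, 124, 102, 111 and 100.2 RPKM in the fed ARC, at 89.3 to 133 (median 109.6) RPKM in the fed PVN and at 49.6 to 63.9 (median 55.4) RPKM in the fed VMH. The ARC range lay inside the PVN range, and both lay above the whole VMH range. ARC and PVN differed by 0.01 ± 0.11 on the log2 scale, with a 95% interval of -0.21 to 0.23. Against the mean of the other fed nuclei the PVN was higher by 0.51 ± 0.09 and the VMH lower, at -0.75 ± 0.09. Of the 50-base stretches of Rpl10 85.4% recur in other genes.

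**Figure D3:**
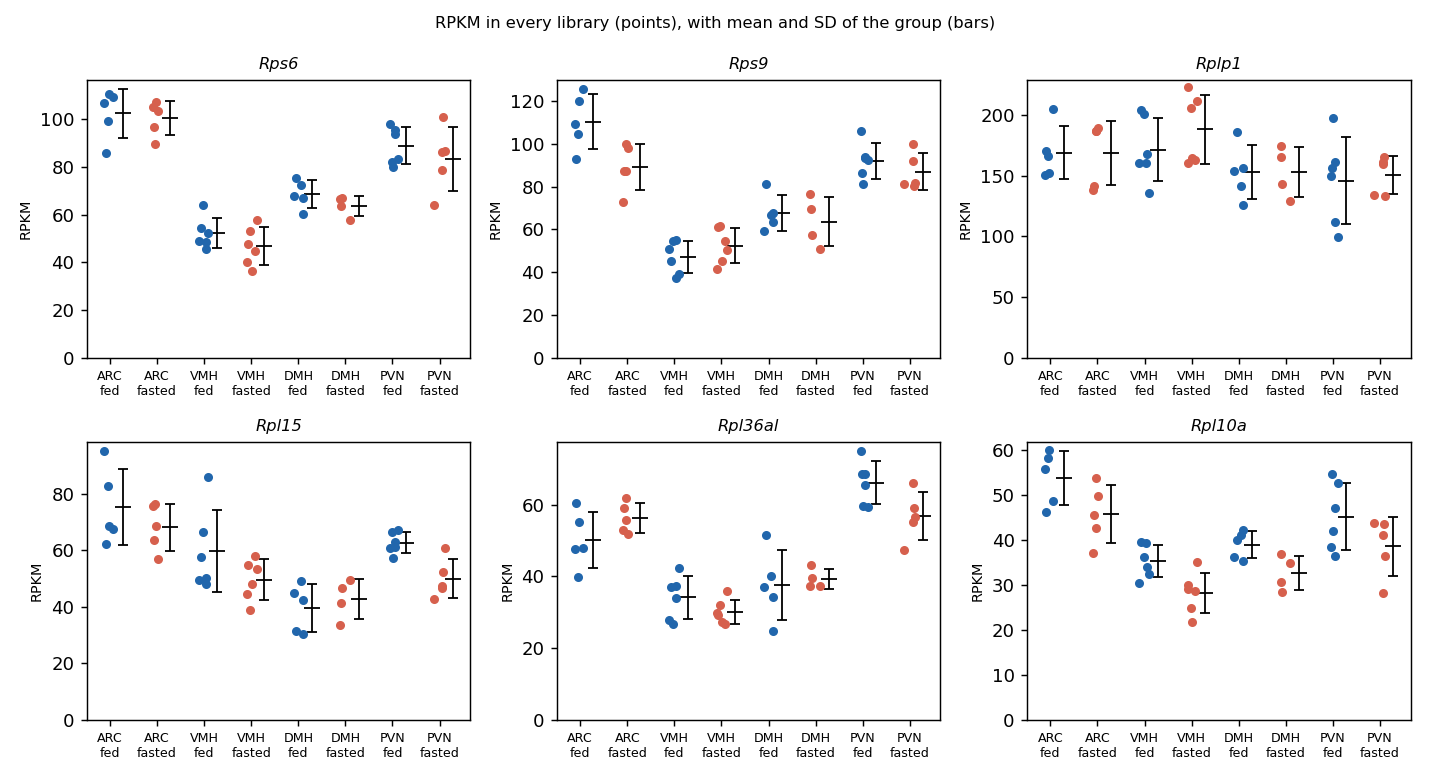
RPKM in every library (points) with the mean and SD of each group (bars) for 6 genes, by nucleus and state on the x axis. Rps6 and Rps9 fall from ARC and PVN to VMH, Rplp1 overlaps in all groups, Rpl15 is lowest in the fed DMH, Rpl36al is highest in the fed PVN, and the mean of Rpl10a is lower in fasted than in fed mice in each nucleus.

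The 3 proteins of the stalk that recruits translation factors to the large subunit did not move together. Rplp2 followed the majority: it stood at 62.1, 76.3, 65.02, 63.3 and 57.5 RPKM in the fed ARC, at 41.5 to 58.99 (median 46.4) RPKM in the fed PVN and at 24.6 to 51.2 (median 35.99) RPKM in the fed VMH. The ARC was above the VMH in every library, by 0.84 ± 0.12, and above the PVN by 0.42 ± 0.12 (adjusted p = 0.0555), with 1 PVN library inside the ARC range. Rplp1 stood at 153, 205, 150.2, 166 and 170.0 RPKM in the fed ARC and at 136 to 204 (median 164) RPKM in the fed VMH, ranges that overlapped almost fully. Its fed means were 169, 171, 153 and 146 RPKM for ARC, VMH, DMH and PVN (adjusted p over the nuclei 0.570), and ARC and VMH differed by -0.02 ± 0.14, with a 95% interval of -0.30 to 0.27. Rplp0, the base of the stalk, had fed means of 35.3, 23.1, 27.9 and 34.8 RPKM and was lower in the VMH, at -0.49 ± 0.14.

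Rpsa, a small subunit protein also known as the precursor of a laminin receptor, was the other gene of the rule with a name outside the numbered series. Its fed means were 53.6, 51.3, 50.01 and 63.4 RPKM, and the only call was in the PVN, which was higher than the other fed nuclei by 0.28 ± 0.09 (adjusted p = 0.0561). Besides Rpsa and Rplp1, the genes called neither between fed nor between fasted nuclei were Rpl10l, Rpl29, Rpl34, Rpl36, Rpl39l, Rpl7l1, Rps15a, Rps19bp1 and Rps27l, 11 in all. Rpl10l and Rpl39l stood at the value of no reads in most libraries. Rps15a, described here after its values were seen, had fed means of 40.1, 36.2, 43.9 and 39.9 RPKM. Of its stretches 6.37% recur, in 64 other genes. That share is taken over a long annotated transcript of 5179 bases, so it does not mean that such stretches are few. Its ARC minus VMH difference was 0.15 ± 0.10 (95% interval -0.05 to 0.35), an interval that excluded the group's median of 0.63. For Rps27l the interval of the same difference was wide, -0.12 to 1.33.

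In 2 genes, picked after their values were seen, another nucleus stood out. Rpl15, a large subunit protein, stood at 31.4, 49.3, 30.4, 42.3 and 44.8 RPKM in the fed DMH, at 48.2 to 85.9 (median 54.1) RPKM in the fed VMH and at 68.7, 67.5, 95.3, 82.8 and 62.4 RPKM in the fed ARC. The DMH was lowest, with 1 of its 5 libraries inside the VMH range, and its difference from the mean of the other fed nuclei was -0.72 ± 0.12 (adjusted p = 0.000181). Rpl15 was also the single gene lower in the fed DMH than in the fed VMH, at -0.57 ± 0.14. In the fasted libraries it stood at 33.5, 46.5, 49.6 and 41.5 RPKM in the DMH and at 38.9 to 58.1 (median 50.8) RPKM in the VMH, and there the 2 ranges overlapped. The other genes called lower in the fed DMH were Rpl36al (-0.38), Rps7 (-0.37), Rps3a1 (-0.35) and Rpl7a (-0.33).

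Rpl36al, a paralog of Rpl36a, stood at 59.3 to 74.98 (median 66.9) RPKM in the fed PVN and at 55.2, 47.8, 47.7, 39.7 and 60.3 RPKM in the fed ARC, with 1 ARC library inside the PVN range. It stood at 26.6 to 42.3 (median 35.5) RPKM in the fed VMH and at 51.5, 40.1, 24.6, 34.2 and 37.1 RPKM in the fed DMH, both below the whole PVN range. The PVN exceeded the mean of the other fed nuclei by 0.73 ± 0.10 (adjusted p = 2.31e-06), and the ARC was lower than the PVN, at -0.40 ± 0.13 (adjusted p = 0.0770), the one gene of the 4 called between these nuclei that was lower in the ARC. In the fasted libraries the means were 56.8 RPKM in the PVN and 56.2 RPKM in the ARC. Its partner Rpl36a had fed means of 71.4, 51.04, 61.1 and 71.5 RPKM for ARC, VMH, DMH and PVN.

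Of the other paralogs, Rpl22l1 was highest in the ARC and lowest in the VMH, as was its partner. It had fed means of 95.04, 65.05, 80.7 and 75.1 RPKM for ARC, VMH, DMH and PVN, above Rpl22 with 22.1, 13.3, 18.6 and 19.2 RPKM. Of the stretches of Rpl22l1 65.6% recur in other genes, against 5.19% for Rpl22. RPKM also depend on the annotated exon length, so which of the pair is more abundant is not settled. Rps27 had 495, 249, 336 and 425 RPKM, and its ARC minus VMH difference was 0.99 ± 0.13. The retrotransposed copy Rps27rt had 1.05 ± 0.13, but 91.1% of its stretches recur, so reads of the 2 genes cannot be told apart. Rpl7l1 had 6.43, 6.92, 5.91 and 6.61 RPKM against 31.4, 19.6, 20.4 and 23.96 RPKM for Rpl7. Rpl3 and Rpl39, the partners of the muscle and testis paralogs, had fed ARC means of 249.6 and 64.97 RPKM and fed VMH means of 145 and 41.8 RPKM. Rps19bp1, the gene that is no subunit, averaged 15.7 RPKM and was called in no nucleus.

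After 24 hours of fasting no ribosomal protein mRNA passed the test in a single nucleus, and 1 did when the 4 nuclei were averaged. The comparison asks whether the energy state of the animal changes the transcripts of the ribosome, fasted against fed within each nucleus. By limma, 0 of the 84 genes passed an adjusted p under 0.1 in any nucleus, where 0.0566% (ARC), 0.131% (VMH), 0.0238% (DMH) and 0.0715% (PVN) of all genes tested did. Unadjusted p-values under 0.05 were had by 2, 4, 3 and 9 of the 84, against 7.5%, 7.31%, 6.48% and 5.53% of all genes tested. Among the 5842 well-detected genes, the closer comparison, 554, 697, 266 and 532 had such p-values. Of the 3 in the DMH 1 was Rpl10l, whose value lay above that of no reads in 1 of 42 libraries. The fasted mean of the library level differed from the fed one by 0.03, 0.01, 0.03 and -0.08, in the order ARC, VMH, DMH, PVN. All these steps were smaller than the SD between libraries of a group. Within the 3 batches the step was -0.11, -0.03 and 0.17 in the ARC and -0.12, 0.03 and 0.12 in the VMH, so its sign varied. It was -0.04, -0.14 and -0.03 in the PVN, and -0.0045 and 0.14 in the 2 batches that hold both states of the DMH. No batch held more than 2 libraries of a group, and the step of -0.11 in the ARC was 1 library against 1.

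The intervals limit how large a change could have gone unseen. The 95% interval of the log2 change lay within 0.5 to either side of 0 for 75, 75, 71 and 70 of the 84 genes, again from ARC to PVN, and within 1 for 84, 83, 83 and 84. The median changes were 0.03, 0.02, 0.01 and -0.07. In the PVN 65 of the 84 changes (77.4%) were negative, against 55.9% over the well-detected genes, whose median was -0.03, and the 9 genes with an unadjusted p under 0.05 were all lower. Of the 532 well-detected genes with such a p-value in the PVN, 342 were lower. The PVN median of the 84 genes came to -0.0079 without 1 fasted PVN library, replicate 2, whose library level was 6.06 against 6.34 to 6.42 in the other 4.

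**Figure D4:**
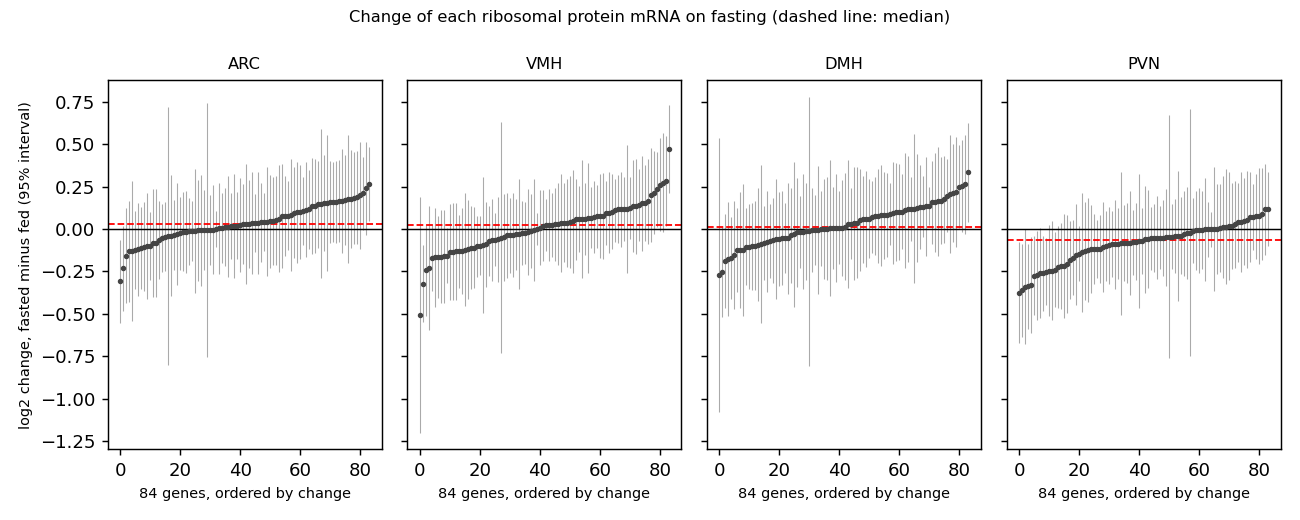
Log2 change from fed to fasted of the 84 tested genes (points, with 95% intervals as lines), ordered from the lowest to the highest in each nucleus; the dashed line is the median. Points lie close to 0 in every nucleus, between -0.51 and 0.47, and the median is below 0 in the PVN (-0.07).

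The 1 gene called when the change was averaged over the 4 nuclei was Rpl10a (1 of the 84, where 0.5% of all genes tested and 1.88% of the well-detected genes were called, and 0.286% and 1.25% lower, so the count is no more than the share of the well-detected genes), a large subunit protein (ENSMUSG00000037805, chr17:28328471-28331033, plus strand). It stood at 59.9, 48.8, 55.9, 58.1 and 46.2 RPKM in the fed and 37.1, 45.7, 53.7, 42.7 and 49.8 RPKM in the fasted ARC. In the VMH it stood at 30.5 to 39.5 (median 35.2) RPKM in the fed and 21.8 to 35.01 (median 28.8) RPKM in the fasted libraries. The fasted libraries lay lower in both nuclei, with overlap. In the DMH it stood at 40.04, 41.01, 42.1, 35.3 and 36.2 RPKM in the fed and 36.8, 28.3, 34.9 and 30.6 RPKM in the fasted libraries. In the PVN it stood at 36.5 to 54.7 (median 44.5) RPKM in the fed and 43.7, 43.8, 28.1, 36.4 and 41.1 RPKM in the fasted libraries. The groups overlapped in these nuclei too. From ARC to PVN in the order above, its log2 changes were -0.23 ± 0.12, -0.32 ± 0.11, -0.25 ± 0.13 and -0.22 ± 0.12, below 0 in 4 of 4 nuclei. Averaged, the change was -0.26 ± 0.06 (95% interval -0.38 to -0.13, adjusted p = 0.0470). Nuclei of the same brain were counted here as independent libraries. The 4 changes may thus not be independent, and the error may be too small for the number of mice. In the nuclei where Rpl10a had one of the 3 smallest p-values among lower genes, two-sided exact permutation p-values were 0.0794 (ARC), 0.0173 (VMH) and 0.0635 (DMH). The adjusted p rose to 0.103 after quantile normalization and to 0.219 with only the libraries of at least 3 M reads, with changes of -0.23 and -0.22, and 88.1% of the gene's 50-base stretches recur in other genes.

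The genes with the smallest p-values in a single nucleus did not pass the adjustment. In the ARC, Rpl17 stood at 171, 189, 173, 179 and 172 RPKM in the fed and 203, 193, 227, 214 and 228 RPKM in the fasted libraries, apart from each other, with a log2 change of 0.26 ± 0.11 (adjusted p = 0.647, exact permutation p = 0.00794, the smallest that 5 against 5 allow). Rps9 in the ARC was -0.31 ± 0.12, with fasted values of 72.8, 87.1, 87.2, 99.7 and 98.1 RPKM that overlapped the fed ones. In the VMH, Rpl37a stood at 97.2 to 159.5 (median 127) RPKM in the fed and 128 to 259 (median 176) RPKM in the fasted libraries, a change of 0.47 ± 0.13 (adjusted p = 0.210). Without fasted VMH library 5 the change of Rpl37a was 0.57 with an adjusted p of 0.0610. In the DMH, Rps16 was 0.33 ± 0.14 and Rpl27 0.25 ± 0.12. In the PVN, Rpl35 was -0.34 ± 0.12, Rps19 -0.36 ± 0.14 and Rpl35a -0.37 ± 0.15. Among the genes next in order in the ARC were Rps27 (0.24 ± 0.14) and Rpl7 (-0.16 ± 0.14). In the VMH they were Rps19 (0.28 ± 0.13), Rpl38 (0.23 ± 0.11), Rpl9 (-0.16 ± 0.08) and Rpl15 (-0.24 ± 0.13). Among the negative changes in the DMH after Rpl10a was that of Rpl8, at -0.17 ± 0.12, and the largest positive changes by p in the PVN were Rpl8 (0.12 ± 0.11), Rpl7 (0.12 ± 0.13) and Rpl30 (0.07 ± 0.10). Averaged over the 4 nuclei, Rpl38 (0.15 ± 0.06), Rpl37a (0.17 ± 0.07) and Rpl30 (0.11 ± 0.05) had the smallest p-values above 0, and Rpl15 (-0.15 ± 0.07) and Rps6 (-0.10 ± 0.05) followed Rpl10a below it.

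Whether the change on fasting differed between nuclei was tested as an interaction, and 0 of the 84 genes passed (0.00596% of all genes tested did, by limma), with 1 at an unadjusted p under 0.05 (4.39% of all genes tested). That gene was Rps19. It stood at 6.52 to 11.04 (median 8.40) RPKM in the fed and 7.29 to 12.3 (median 11.4) RPKM in the fasted VMH. It stood at 12.4 to 19.9 (median 16.5) RPKM in the fed and 14.8, 9.18, 12.5, 12.5 and 14.2 RPKM in the fasted PVN. The fed and fasted values overlapped in both nuclei. The estimates were of opposite sign, 0.28 ± 0.13 in the VMH and -0.36 ± 0.14 in the PVN, with an interaction p of 0.00987 before and 1 after adjustment. Rpl37a and Rps9 followed, at unadjusted p-values of 0.0625 and 0.0639.

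Other mRNAs of the translation machinery were compared in the same way, and the single genes named here were chosen after their values were seen. In a list of 19 mRNAs with a TOP motif that encode no ribosomal protein, 6 were higher in the fed ARC and 12 lower in the fed VMH, with median differences of 0.28 and -0.30 against 0.38 and -0.46 for the ribosomal protein genes. Eef1a1, the elongation factor that brings the transfer RNA, was higher in the ARC by 0.48 ± 0.04 and lower in the VMH, at -0.34 ± 0.04. Tpt1, a small abundant protein linked to growth, gave 0.48 ± 0.10 and -0.50 ± 0.10. Gas5, a host of small nucleolar RNAs, gave 0.25 ± 0.07 and -0.47 ± 0.06, and was higher in the PVN by 0.52 ± 0.06. Pabpc1, the poly(A)-binding protein, gave 0.10 ± 0.10 and 0.04 ± 0.09, neither called. Fau, whose ubiquitin-like part is fused to a ribosomal protein, is a subunit gene under another name and was higher in the ARC by 0.32 ± 0.09 and lower in the VMH, at -0.35 ± 0.08.

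The 4 lists that follow had medians nearer to 0 than the TOP list. Of 47 translation factors, 11 of which are also in the TOP list, 5 were higher and 1 lower in the fed ARC, and 2 higher and 10 lower in the fed VMH, with medians of 0.17 and -0.11. Of 47 ribosome biogenesis genes 3 were higher in the ARC, and 3 higher and 4 lower in the VMH, with medians of 0.07 and -0.12, and of 77 mitochondrial ribosomal protein genes 0 were called in the ARC, and 1 was higher and 3 lower in the VMH, with medians of 0.09 and -0.04. Of 28 genes of mTOR signalling, of the binding of TOP mRNAs and of translation stress 1 (Deptor) was higher in the ARC, with medians of -0.03 in the ARC and -0.07 in the VMH. In the VMH Mtor and its inhibitor Deptor were higher, and Eif4ebp2, which blocks the cap-binding factor, the stress kinases Eif2ak2 and Eif2ak3 and the RNA-binding protein Tial1 were lower. On fasting, averaged over the nuclei, Mrpl36 was the 1 gene of these lists that was called, at -0.66 ± 0.17 (adjusted p = 0.0870).

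**Figure D5:**
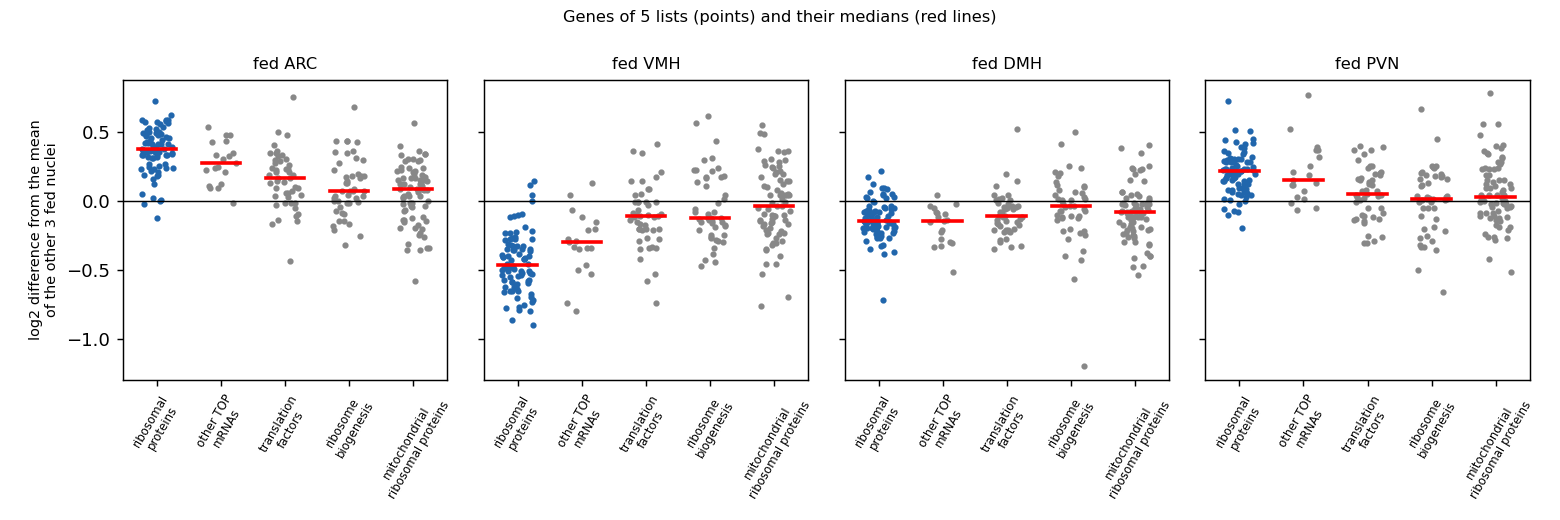
Log2 difference of each fed nucleus from the mean of the other 3 fed nuclei, for single genes (points) and the median (red line) of 5 lists. In the ARC panel the medians run from 0.38 for the ribosomal proteins and 0.28 for other TOP mRNAs to 0.07 for ribosome biogenesis genes, and in the VMH panel from -0.46 and -0.30 to -0.04 for mitochondrial ribosomal proteins.

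Markers of cell types also differed between the nuclei. Of 12 oligodendrocyte markers 9 were higher in the fed VMH (median 1.07) and 5 lower in the fed ARC (median -0.64), and their summed level was 279.9 to 437 RPKM in the fed VMH against 114 to 164 RPKM in the fed ARC, 118 to 173 in the fed PVN and 159 to 246 in the fed DMH. All 12 passed the filter on low values, and the defining myelin gene Mbp was higher in the VMH by 1.19 ± 0.14. Of 10 endothelial markers 7 were higher in the fed PVN (median 0.79) and 5 lower in the fed ARC (-0.60), and of 12 microglial markers 4 were higher in the fed ARC (0.42). Of 15 neuronal markers 7 were higher and 4 lower in the VMH (0.29), and 3 higher and 7 lower in the ARC (-0.23). Of 12 astrocyte markers 4 were higher and 1 lower in the VMH (0.17), and 1 higher and 5 lower in the ARC (-0.24), and of 12 tanycyte and ependymal markers 4 were higher in the ARC (0.18) and 3 lower in the VMH. Of 6 blood markers 5 were tested and 0 called in the fed nuclei. On fasting, the marker genes that passed the test were Agrp in the ARC, Ppp1r17 in the PVN (1.28 ± 0.25), the astrocytic water channel Aqp4, which fell in the VMH (-0.94 ± 0.19) and over the 4 nuclei (-0.59 ± 0.10), and the microglial protease Ctss, which fell over the 4 nuclei (-0.28 ± 0.07).

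With the mean log2 level of the oligodendrocyte markers in each library as a covariate, a fit chosen after seeing the data, 40 of the 84 genes were called between the fed nuclei (7.43% of all genes tested) in place of 70, and 35 in place of 69 between fed ARC and fed VMH (2.42% of all genes tested in place of 7.90%). The median ARC minus VMH difference was 0.62 with the covariate and 0.63 without. Among the 35 libraries with at least 3 M reads, 68 genes were called between the fed nuclei (11.88% of all genes tested). The fed VMH libraries were the shallowest on average, at 3.20 M reads against 4.48 M in the fed ARC, and with depth as a covariate 65 genes were called (11.87%). The summed oligodendrocyte marker levels of the fed VMH and the fed ARC did not overlap, so the oligodendrocyte covariate cannot separate nucleus from cell composition. Nor did those of the neuron markers, at 1676.5 to 1928 RPKM in the fed VMH and 1022 to 1227 in the fed ARC. In the same order, astrocyte markers (606 to 860, 467 to 516) and tanycyte and ependymal markers (233 to 323, 371 to 424) were apart too. Microglial, endothelial and blood markers overlapped. No covariate was fitted for these lists. The part of cell composition in the differences between nuclei was not tested.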

How the data were processed

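The deposited table gives RPKM per gene and library, made by the authors from single-end reads of laser-captured tissue. The submitters' processing notes name CASAVA 1.7, TopHat2 2.0.11, Cufflinks 2.2.1, edgeR and limma, and the build GRCm38. RNA was amplified with the Ovation RNA-Seq System before library preparation, and the authors removed outlying libraries and batch effects. Spread between libraries may therefore be smaller than in the raw data, and group values may be shifted. A small count, 5 reads on average, had been added to every gene, so a gene without reads is not at 0. In the inferred scale of 1 read, 97.8% to 98.9% of low values were whole reads within a tolerance of 0.05. Depth and batches were inferred in this way and are not given in the labels.

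RPKM were analysed as log2(RPKM + 1), so fold changes of low genes are understated. Genes with at least 1 RPKM in at least 4 libraries were kept (33579 of 37907). One limma model (limma 3.58.1 in R 4.3.3) with a mean for each of the 8 groups and no covariate was fitted over all 42 libraries with an intensity trend, and p-values were adjusted over all genes tested by the Benjamini-Hochberg method. The threshold was an adjusted p of 0.1. Of the genes tested, 4756 stood at the value of no reads in all libraries, so 5842 genes with a mean of at least 10 RPKM and reads in at least 21 libraries served as a second background, chosen after the data were seen; differences within 1e-09 of 0 were given no sign. Tested contrasts were fasted against fed in each nucleus and over the 4 nuclei, their interaction, F-tests over the 4 nuclei of each state, and each nucleus against the mean of the other 3. Errors of log2 differences are standard errors, and those of group means are SD. Exact permutation tests over libraries were two-sided (scipy 1.17.1). Group tables and figures used Python 3.11.15, pandas 2.3.3 and matplotlib 3.10.9. On simulated data with 33579 genes, for the comparison of fasted with fed ARC, 100% of the 98 genes given a log2 change of 2 were called, as were 76.5% of the 102 given a change of 1.

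Gene types and positions came from GENCODE release M 21, which held 36049 of the 37907 identifiers (1858 were not matched), and transcript starts from RefSeq. Rpl24 is not analysed here, some genes that the rules below name are not reported here, and planned comparisons of protein features were not run. The genes and lists were chosen with earlier results of these data known. Named are, for each contrast on fasting, the called genes or else the 3 smallest p-values in each direction; the 10 smallest p-values between nuclei of each state; 3 for the interaction; the 5 highest and 5 lowest means; paralogs with their partners; Rps19bp1, Rpsa, the stalk genes, Rps6, Rpl10 and Rpl13a; list genes called on fasting; and the 5 genes most correlated with the group. Contrasts between pairs of fed nuclei and of single fasted nuclei against the others, the oligodendrocyte covariate and the fit of deep libraries were added after the data were seen. Replicate numbers did not pair the samples: the deviations of libraries with the same number and state in different nuclei had a median correlation of -0.0264 (-0.162 to 0.110, 58 pairs), and those of fed and fasted libraries of a nucleus one of -0.0619 (-0.124 to 0.0622, 20 pairs). Alternatives were other pseudocounts, filters and scalings, sample weights, depth, batch or replicate as a term, leaving out each library in turn, and leaving out the genes of recurring sequence.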

Additional observations from a re-analysis of the deposited data

Results flagged for a closer look

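Single libraries that stood apart from the rest of their group were looked for in 136 groups of values, 16 genes and the level of the whole group in each of the 8 groups of libraries, and 9 were found. Chance alone flags about 1 in 20 such groups. The level of the ribosomal protein genes as a whole was low in fasted PVN library 2, at 6.058 against 6.343 in the nearest of the other 4. Rpl29, a large subunit protein, was high in fed DMH library 3, at 59.01 RPKM against 37.66 RPKM in the next, and in fed PVN library 1, at 86.75 RPKM against 46.56 RPKM. Rpl22l1 was high in fed VMH library 1, at 90.34 RPKM against 66.46 RPKM, and in fasted VMH library 2, at 103.6 RPKM against 62.96 RPKM. The other 4 were low values. Rpl10 stood at 91.52 RPKM in fasted ARC library 3 (next 110.8 RPKM), Rpl13a at 41 RPKM in fasted VMH library 2 (next 49.21 RPKM), Rps19 at 7.29 RPKM in fasted VMH library 5 (next 10.59 RPKM) and Rpl37a at 195.1 RPKM in fasted DMH library 3 (next 238.2 RPKM). Their causes were not tested.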

How the results depend on the processing

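Of 668 repeats of the counts of calls under other settings, 650 stayed within 1.5 times. Most of these repeats left out a single library, and counts of 0 that stayed 0 are among the 650. Of 292 repeats of the median changes on fasting, 290 moved by less than the SD between libraries, but these medians lie near 0 and 19 had the other sign (ARC 2, VMH 6, DMH 1, PVN 0, and 10 over the 4 nuclei). The 10 genes with the smallest p-values between fed nuclei passed in 560 of 560 repeats. They had been picked for those p-values in the same data, so the tally says little on robustness. Rpl10a, picked in the same data too, passed in 52 of 54, with log2 changes of -0.2724 to -0.2301 when single libraries were left out. Quantile normalization gave 1 call on fasting in the VMH (Rpl37a), 0 over the 4 nuclei and 1 lower in the fed DMH, whose median was then -0.0498. With only libraries of at least 3 M reads there were 0 calls over the 4 nuclei. The oligodendrocyte covariate left 40 calls between fed nuclei, 28 for the fed ARC, 32 for the VMH and 14 for the PVN. The shares of all genes tested called in either direction were 7.43%, 2.42%, 3.18% and 4.17%, against 12.4%, 4.62%, 9.82% and 5.76% without it. Without the genes of recurring sequence, and so with fewer genes counted, there were 33 calls between fed and 31 between fasted nuclei, 22 for the fed ARC, 29 for the VMH, 2 for the DMH, 13 for the PVN and 0 on fasting over the 4 nuclei. Within batch 3 the median change on fasting was 0.1651 in the ARC and 0.1512 in the DMH. Except for that construction, the cause of these moves was not tested.

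Leaving out single libraries gave 0 to 1 calls on fasting in the VMH, 1 over the 4 nuclei, 64 to 71 between fed and 62 to 69 between fasted nuclei, and against the other fed nuclei 46 to 58 for the ARC, 60 to 68 for the VMH, 1 to 7 for the DMH and 18 to 31 for the PVN. The median changes on fasting ran from 0.0022 to 0.0583 (ARC), -0.0234 to 0.0473 (VMH), -0.0047 to 0.0753 (DMH) and -0.0939 to -0.0079 (PVN), and from -0.0198 to 0.0097 over the 4 nuclei. With the replicate number as a block, which did not pair the samples, there were 66 calls between fed and 64 between fasted nuclei (10.9% and 10.4% of all genes tested). Under this block there were 51, 62, 4 and 22 for the fed ARC, VMH, DMH and PVN (4.03%, 8.86%, 1.83% and 5.10%). With the replicate number as a block within state there were 63 calls between fed and 55 between fasted nuclei (8.80% and 7.68% of all genes tested). Under the first block Rpl10a was at -0.2507 with an adjusted p of 0.0746. With batch as a term there were 69 calls between fed and 65 between fasted nuclei. The value within batch 1 could not be had for the DMH, which has no fasted library there. Depth limits low genes such as Rpl3l most.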

Other observations

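Across the 42 libraries, with group means removed, a ribosomal protein gene correlated with the mean of the others at a median r of 0.563, and 50 of the 80 genes were over 0.5. The closest were Rps27 (0.785), Rps15 (0.775) and Rpl41 (0.760), among the most abundant of the group, and the least close were Rpl29 (-0.0242), Rpl15 (0.0246) and Rps15a (0.151). Of 5761 other genes with a mean of at least 10 RPKM and reads in at least 21 libraries the median r with the mean of the group was 0.0765. The 5 nearest were Ubb (0.786), a polyubiquitin gene, the chaperone Hspa8 (0.742), the superoxide dismutase Sod1 (0.740), the glycolytic enzyme Aldoa (0.736) and the protease inhibitor Cst3 (0.711), all of them abundant mRNAs. These values are descriptions over libraries that share batches, amplification and depth, and say nothing on shared control.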
